A study of Homo sapiens with 12 samples.

Results

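Collagen chain genes were taken as every row of the deposited expression table whose gene name has the form COL, a number, A and a number. The pattern found 43 of 57773 genes, and 20 of the 43 passed the filter on low read numbers and were tested. By class these were 5 of 10 fibrillar genes, 4 of 9 network genes, 3 of 5 beaded filament genes, 4 of 10 FACIT genes (fibril-associated collagens with interrupted helices), 1 of 2 multiplexins, 2 of 4 transmembrane collagens and 1 of 3 genes of anchoring fibrils and other types. COL11A2 carries a suffix in the table, lies outside the pattern and is not counted among the members.

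The series holds 12 libraries of ribosome-depleted total RNA from ES-2, an established human ovarian cancer cell line. All 12 come from this one line. Per the sample labels, 3 libraries received control siRNA (siC) and 3 each received a pool of siRNAs: siI1 targets IGF2BP1, siI2 targets IGF2BP2 and siI3 targets IGF2BP3. These are members of a family of RNA-binding proteins that bind and stabilize many mRNAs. Whether replicates came from separate cultures is not in the labels; the p-values reflect spread among these libraries, which may be technical.

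Collagens are built from chains that fold around each other into a rod-like helix. Fibrillar collagens such as types I and V assemble into the tension-bearing fibrils of connective tissue, type IV forms the sheet-like network of basement membranes, and type VI forms beaded filaments between them. FACITs decorate fibril surfaces, multiplexins such as type XVIII lie in basement membranes, and transmembrane collagens stay anchored in the cell surface. In ovarian tumours collagen is a main component of the stroma, made largely by fibroblasts, and tumour cells with mesenchymal features can also make it. The miR-29 family is a well-known repressor of collagen mRNAs, and let-7 targets are a well-known class of mRNAs bound by IGF2BP proteins.

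These small RNAs are shown because the collagen transcripts share letters that pair with their seeds (bases 2 to 8, in capitals). The mature sequences are from RefSeq, and miRNA levels were not analysed here.
hsa-miR-29a-3p: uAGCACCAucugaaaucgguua
hsa-let-7a-5p: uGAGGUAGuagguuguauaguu

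The letters TGGTGCT, which pair with the miR-29 seed, were searched on the sense strand of the longest annotated 3' UTR of each gene. Of the 20 tested collagen genes, 12 (60.0%) held at least 1 match, compared with 17.2% of 11228 tested genes with an annotated 3' UTR and 15.9% of the 8605 whose 3' UTR was within the members' length range. The let-7 match, CTACCTC, was present in 5 of 20 (25.0%), compared with 11.04% and 9.75%. The windows below are from the genes that differed from control in limma on the values as deposited, with the match in capitals. COL5A2 and COL17A1 differed in limma only between knockdowns and are not shown. COL5A2 held 1 match to each family and COL17A1 held 0. COL5A1 held 4 matches to miR-29, COL1A1, COL4A1 and COL4A2 held 1 each, and COL18A1 held 0.
COL1A1 bases 923 to 929 of the 3' UTR: ggaatcacTGGTGCTatagaaat
COL5A1 bases 1039 to 1045: atgaaaatTGGTGCTtatttttt
COL5A1 bases 1079 to 1085: ctctcttgTGGTGCTatctatct
COL5A1 bases 1413 to 1419: aatgtttgTGGTGCTaatttctg
COL5A1 bases 1794 to 1800: cggggctcTGGTGCTgtccccga
COL4A1 bases 30 to 36: tcacaacaTGGTGCTacttcttc
COL4A2 bases 3813 to 3819: cttccctgTGGTGCTactgtaac
COL1A1 bases 789 to 795, let-7 match: ctgaaagaCTACCTCgttcttgt
A match of letters is a description of the sequence and says nothing of binding.

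Each library was checked before the collagen genes were read. Libraries held 3274590 to 11110357 reads without spike-ins. Levels are in FPM, fragment numbers relative to a library size that the authors scaled. IGF2BP1 stood at 43.9 ± 4.52 FPM in siC and 11.1 ± 0.539 in siI1, IGF2BP2 at 80.0 ± 4.72 in siC and 13.4 ± 5.10 in siI2, and IGF2BP3 at 23.5 ± 5.18 in siC and 4.52 ± 1.76 in siI3 (mean ± SD, n = 3). The family members not targeted differed too. IGF2BP3 was at 19.5 to 29.4 FPM in siC, and lower at 13.3 to 17.4 in siI1 and 11.1 to 18.2 in siI2. IGF2BP1 was higher in siI2 (53.8 to 58.6) than in siC (40.7 to 49.1). IGF2BP2 was higher in siI1 (84.1 to 97.1) and siI3 (94.0 to 117) than in siC (74.8 to 83.9). VIM and the keratins KRT7, KRT8 and KRT18 were present in every library, while EPCAM reached at most 0.970 FPM and PAX8, a marker of many ovarian carcinomas, at most 2.91 FPM. MUC16, from the same marker list, was at 10.6 FPM in siI3 3 and at most 4.61 FPM in the other libraries. Libraries siC 1 and siC 3 stood apart in base composition: their deviations from the gene means had a slope of -0.46 and -0.43 log2 units per 10 points of GC content, against 0.02 in siC 2 and -0.09 to 0.21 in the knockdown libraries. Collagen transcripts are rich in GC, with a median of 60.7% over the 20 tested members and 49.1% over all tested genes. The comparisons with siC were therefore also read after a correction for GC content and transcript length. Library siI3 3 also stood apart for rarely detected collagens: 13 of the 23 untested members had their highest level there.

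**Figure D1:**
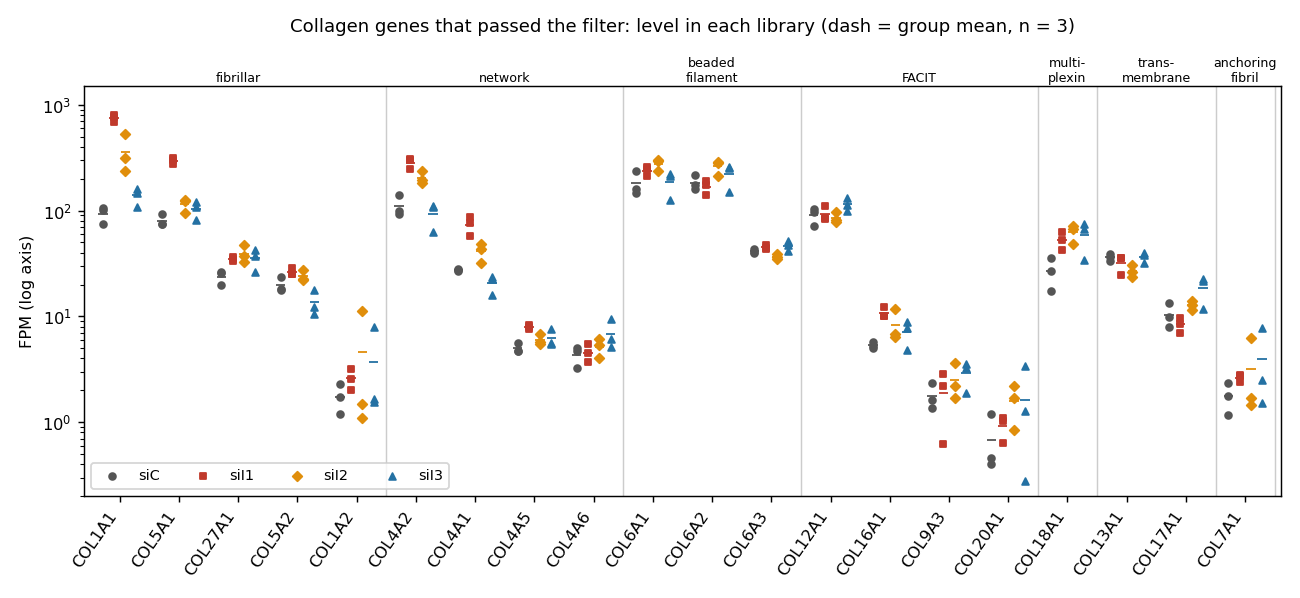
Level in FPM (log axis) of the 20 tested collagen genes in each of the 12 libraries, with a dash for the mean of each group (n = 3). COL1A1 lies between 692 and 798 FPM in siI1 and between 74.6 and 105 FPM in siC, while the beaded filament genes COL6A1 and COL6A2 stay within 125 to 302 FPM in all libraries.

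In the control cells, the type VI chains COL6A2 and COL6A1 had the highest levels per length. Per kilobase of transcript, the mean level in siC was 52.9 FPM for COL6A2, 42.5 for COL6A1, 17.1 for COL4A2, 13.9 for COL1A1, 11.4 for COL13A1 and 9.49 for COL5A1. After the IGF2BP1 siRNA the order differed, with COL1A1 first at 111.6 FPM per kilobase, followed by COL6A1 at 56.3, COL6A2 at 48.6, COL4A2 at 43.7 and COL5A1 at 35.0. In siI2 and siI3, COL6A2 and COL6A1 stayed first, and COL1A1 was next at 53.3 and 20.7 FPM per kilobase. Within siC the FPM ranges of COL6A2 (158 to 217) and COL6A1 (147 to 234) overlapped, as did those of COL4A2 (92.8 to 140.0) and COL1A1 (74.6 to 105).

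The level of all 43 genes summed was 954.1 ± 121 FPM in siC, 2144 ± 163 in siI1, 1588 ± 261 in siI2 and 1136 ± 196 in siI3 (SD, n = 3). The sums of siI1 (1956 to 2245) lay above those of the other 3 groups, those of siI2 (1304 to 1819) lay above siC (882 to 1093), and those of siI3 (912 to 1274) overlapped siC. Fibrillar genes made up 23.1% of the sum in siC and 51.9% in siI1, while their part was 34.2% in siI2 and 26.3% in siI3. The beaded filament class went from 42.5% in siC to 21.1% in siI1, although its own sum was 405 ± 75.7 FPM in siC and 452 ± 49.3 FPM in siI1. COL1A1 alone was 9.81% ± 1.48 of the collagen sum in siC and 35.0% ± 0.790 in siI1. In bulk RNA, fewer cells of a type and less RNA per cell cannot be told apart.

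**Figure D2:**
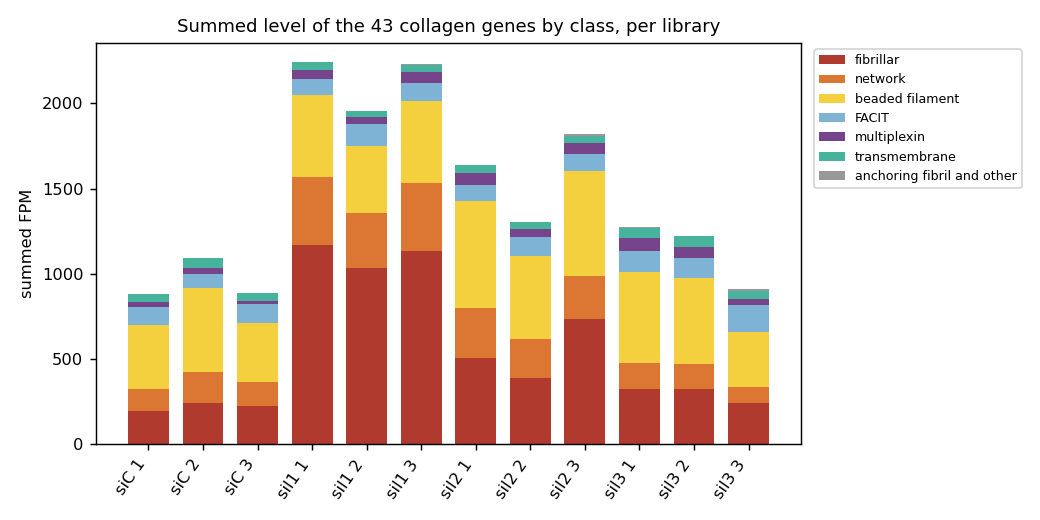
Summed FPM of the 43 collagen genes in each of the 12 libraries, stacked by collagen class. The fibrillar part is 1035 to 1172 FPM in the siI1 libraries and 195 to 244 FPM in the siC libraries.

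After knockdown of IGF2BP1, 5 of the 20 tested collagen genes rose against control and 0 fell, with 8 of 20 at an unadjusted p below 0.05 (limma, Benjamini-Hochberg adjusted p below 0.05). Over all 13782 tested genes 8.18% were called, 3.77% as higher. The genes that rose were the fibrillar COL1A1 and COL5A1, the basement membrane pair COL4A1 and COL4A2, and COL18A1. After knockdown of IGF2BP2, 2 rose, COL1A1 and COL18A1, and 0 fell, with 8 of 20 at an unadjusted p below 0.05, against 1.51% of all genes called and 0.573% called as higher. After knockdown of IGF2BP3, 1 rose, COL18A1, and 0 fell, with 5 of 20 at an unadjusted p below 0.05, against 10.6% of all genes called and 2.3% called as higher. In siI3 the share of members called, 1 of 20, is below the background read in either direction and above that of genes called as higher. DESeq2 on recovered reads also called COL16A1 in siI1 (adjusted p = 0.0151), COL4A2, COL27A1, COL5A1, COL6A1 and COL4A1 in siI2 (adjusted p from 0.000941 to 0.0476), and COL17A1 and COL27A1 in siI3 (adjusted p = 0.0225 and 0.0466). The 3 comparisons share their control libraries.

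The median log2 fold change of the 20 members on the log2(FPM + 1) scale was 0.41 (siI1), 0.51 (siI2) and 0.34 (siI3), where all tested genes had medians of -0.05, -0.09 and -0.05. Groups did not overlap for 10 members in siI1, all higher, for 8 higher and 2 lower in siI2, and for 3 higher and 1 lower in siI3, where 32.8%, 20.1% and 29.3% of all genes did not overlap in either direction. After the GC and length correction the members' medians were 0.16, 0.20 and 0.12, against values between -0.01 and 0.02 over all genes. Over all genes the correction left 6.59%, 1.38% and 6.6% called. It kept 4 of the 5 calls in siI1 (COL1A1, COL5A1, COL4A1 and COL4A2) and 1 of the 2 in siI2 (COL1A1). The correction ended all 3 calls of COL18A1, whose transcript is 67.2% GC. It also called COL6A2 as lower in siI1, and COL12A1 as higher and COL4A2 as lower in siI3.

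**Figure D3:**
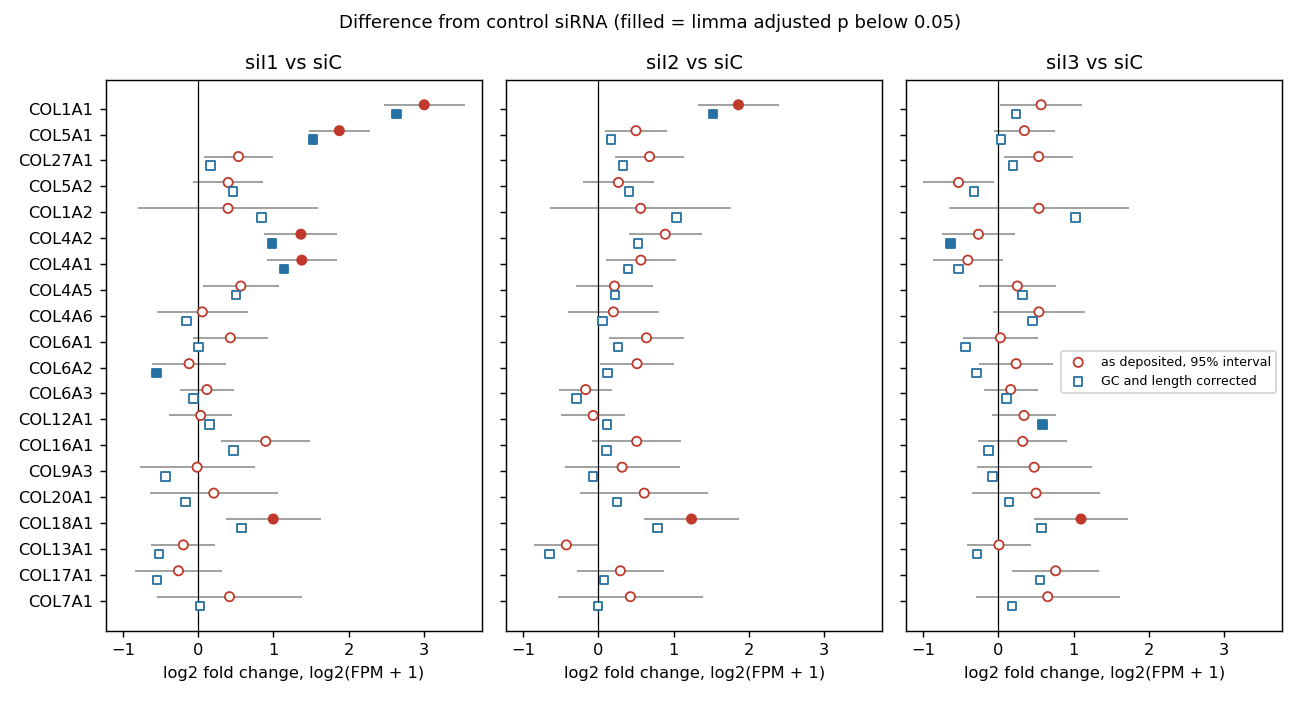
Log2 fold change against control siRNA for the 20 tested collagen genes as deposited (circles, with 95% intervals) and after the GC and length correction (squares), filled where the limma adjusted p is below 0.05. COL1A1, COL5A1, COL4A1 and COL4A2 are filled on both scales in siI1, and COL18A1 is filled in all 3 panels only as deposited.

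COL1A1 encodes a chain of type I collagen, the main fibril-forming collagen of bone, tendon and scar. Its level was 74.6, 105 and 101 FPM in siC, 798, 692 and 761 in siI1, 311, 237 and 527 in siI2, and 147, 161 and 109 in siI3. Each knockdown group lay wholly above the control libraries, with siI1 highest, siI2 between, and siI3 next to control. The group means were 8.03 times siC in siI1 and 3.83 times siC in siI2. The log2 differences were 3.00 ± 0.26 in siI1 (SE, limma adjusted p = 6.2e-06) and 1.86 ± 0.26 in siI2 (limma adjusted p = 0.00248). In siI3 the difference of 0.57 ± 0.26 did not pass (limma adjusted p = 0.151). With GC and length corrected the values were 2.63 (siI1), 1.52 (siI2) and 0.23 (siI3). With siC 2 as the only control library, the log2 differences were 2.83 in siI1 and 1.68 in siI2. The call stayed in siI1 and was lost in siI2, in a less precise test with 1 control library.

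The partner chain of type I collagen was at a far lower level. COL1A2 was at 1.74, 1.19 and 2.30 FPM in siC, 2.02, 3.20 and 2.56 in siI1, 1.49, 1.102 and 11.2 in siI2, and 1.54, 1.65 and 7.97 in siI3. It rested on 6 to 46 reads per library, siI2 3 and siI3 3 were far above the rest, and the groups overlapped. In siI1 its log2 difference was 0.40, with a 95% interval from -0.80 to 1.598 (limma adjusted p = 0.681). After the GC and length correction its log2 difference was 0.84 in siI1, 1.04 in siI2 and 1.02 in siI3. None of these was called (limma adjusted p = 0.422, 0.380 and 0.283). The ratio of COL1A1 to COL1A2, each per transcript length, was 38.2 to 78.7 in siC, 193 to 352 in siI1, 42.1 to 192 in siI2 and 12.2 to 87.0 in siI3. The ratios of siI1 lay above those of siC without overlap, and an exact permutation test of 3 against 3 cannot go below 0.1. These ratios are from the values as deposited, without the GC and length correction. The chains differ in GC content, at 61.1% for COL1A1 and 41.7% for COL1A2. Among the controls the ratio was 38.2 in siC 1, 39.1 in siC 3 and 78.7 in siC 2.

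COL5A1 and COL5A2 encode chains of type V collagen, which sits inside type I fibrils and limits their diameter. COL5A1 was at 73.9, 92.5 and 74.7 FPM in siC, 310.1, 278 and 302 in siI1, 126, 94.997 and 122 in siI2, and 120.4, 108 and 81.0 in siI3. The siI1 libraries lay far above all others, and the siI2 libraries lay just above siC. Its mean in siI1 was 3.69 times that in siC, a log2 difference of 1.88 ± 0.19 (limma adjusted p = 3.35e-05) and 1.52 after correction. In siI2 and siI3 the differences of 0.50 and 0.34 did not pass (limma adjusted p = 0.148 and 0.237). COL5A2 was at 23.4, 18.2 and 17.7 FPM in siC, 25.3, 24.9 and 28.5 in siI1, 27.5, 22.6 and 21.8 in siI2, and 17.8, 12.3 and 10.6 in siI3. It was called in none of the comparisons with control. The COL5A1 to COL5A2 ratio per length was 2.64 to 4.24 in siC, 8.83 to 10.2 in siI1, 3.51 to 4.68 in siI2 and 5.65 to 7.32 in siI3, so siI1 and siI3 lay above siC without overlap. This ratio too is without the correction, and GC content was 60.3% for COL5A1 and 47.9% for COL5A2.

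COL27A1, a fibrillar collagen best known from cartilage, was at 19.6 to 26.3 FPM in siC, 33.2 to 36.1 in siI1, 32.3 to 47.3 in siI2 and 26.4 to 41.9 in siI3. Each knockdown group lay above siC, the last by a small margin, and its log2 differences of 0.54, 0.68 and 0.53 did not pass (limma adjusted p = 0.124, 0.0999 and 0.112). With GC and length corrected they were 0.17, 0.33 and 0.19 (limma adjusted p = 0.674, 0.414 and 0.584).

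**Figure D4:**
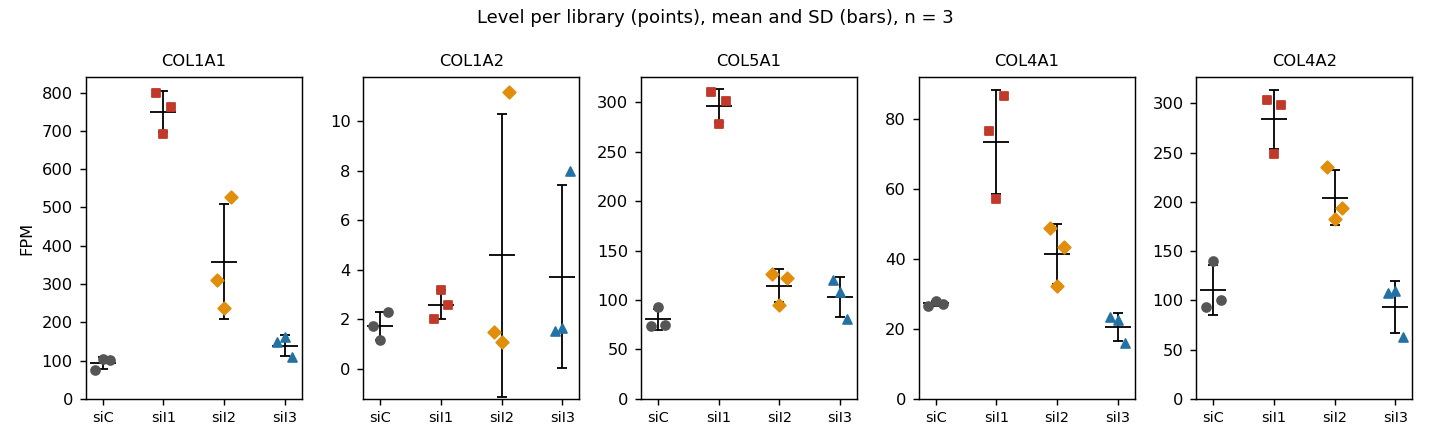
FPM of COL1A1, COL1A2, COL5A1, COL4A1 and COL4A2 in each library (points) with the mean and SD of each group (n = 3), on axes of their own. COL1A2 stays at or below 3.20 FPM in 10 of 12 libraries and reaches 11.2 FPM in siI2 3 and 7.97 FPM in siI3 3.

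Among the network collagens, COL4A1 and COL4A2 encode the most widespread chains of type IV collagen, the scaffold of basement membranes. COL4A1 was at 26.7, 27.9 and 27.2 FPM in siC, 76.7, 57.3 and 86.5 in siI1, 48.8, 32.2 and 43.4 in siI2, and 23.3, 22.5 and 15.9 in siI3. The 4 groups did not overlap, with siI1 highest and siI3 lowest. Its log2 difference was 1.38 ± 0.22 in siI1 (limma adjusted p = 0.00142), 0.57 in siI2 (limma adjusted p = 0.151) and -0.41 in siI3 (limma adjusted p = 0.220). COL4A2 was at 92.8, 140.0 and 100.03 FPM in siC, 304, 249 and 299 in siI1, 236, 183 and 194 in siI2, and 108, 109.6 and 62.7 in siI3. The siI1 and siI2 libraries lay above siC and siI3 overlapped it. Its log2 difference was 1.37 ± 0.23 in siI1 (limma adjusted p = 0.00222) and 0.89 in siI2 (limma adjusted p = 0.0608). The siI2 difference passed with another scaling in limma (relative log expression, adjusted p = 0.0246), with edgeR (adjusted p = 0.0338) and with DESeq2 (adjusted p = 0.000941). After correction COL4A2 was at 0.98 in siI1, 0.53 in siI2 and -0.64 in siI3 (limma adjusted p = 0.00307, 0.168 and 0.0418). Corrected values of COL4A1 were 1.14, 0.39 and -0.53 in the same order (limma adjusted p = 0.00323, 0.342 and 0.117). With siC 2 as the only control library, neither COL4A1 nor COL4A2 was called in siI1 (limma adjusted p = 0.141 and 0.350). The ratio of COL4A2 to COL4A1 per length stayed between 3.52 and 5.80 in all 12 libraries. The related chains were lower: COL4A5 was at 4.74 to 8.23 FPM and COL4A6 at 3.25 to 9.40 FPM, and neither was called.

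COL4A1 and COL4A2 lie head to head on chromosome 13, and the promoter window is shown because it holds both starts. In the RefSeq promoter table (GRCh38.p14), the annotated starts are 127 bases apart on opposite strands and the windows of 300 bases share 226 bases. Capitals mark GC boxes (GGGCGG on either strand) and a CCAAT box (CCAAT on either strand).
COL4A1, chr13:110307108-110307407, minus strand: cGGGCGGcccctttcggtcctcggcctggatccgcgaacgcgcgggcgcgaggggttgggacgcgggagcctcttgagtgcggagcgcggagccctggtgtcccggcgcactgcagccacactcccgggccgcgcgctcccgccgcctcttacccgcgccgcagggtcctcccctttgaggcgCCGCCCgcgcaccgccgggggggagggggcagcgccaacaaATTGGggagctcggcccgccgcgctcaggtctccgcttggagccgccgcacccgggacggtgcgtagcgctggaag
The window holds 2 GC boxes and 1 CCAAT box. Windows of 31 of the 43 collagen genes and 14 of the 20 tested were read, and those of the other members were not. Of these 14, 9 held a GC box, 5 a CCAAT box and 4 a TATA box (TATAAA, either strand). The shares over all 35114 promoters read were 44.95%, 34.6% and 11.5%. These 35114 were not limited to tested genes, so they are not a matched background.

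Of the 3 tested beaded filament genes, COL6A1 and COL6A2 were abundant. On the values as deposited limma called none of the 3 against control, with 0 at an unadjusted p below 0.05 in siI1, 2 in siI2 and 0 in siI3, and DESeq2 called COL6A1 in siI2 (adjusted p = 0.0357). COL6A1, COL6A2 and COL6A3 encode the chains of type VI collagen, which links cells to the surrounding matrix. COL6A1 was at 159, 234 and 147 FPM in siC, 245, 213 and 257 in siI1, 302, 237 and 293 in siI2, and 221, 209.6 and 125 in siI3. COL6A2 was at 174, 217 and 158 FPM in siC, 190.1, 139 and 176 in siI1, 289.6, 214 and 282 in siI2, and 258, 254 and 148 in siI3. Only COL6A1 in siI2 lay wholly above siC, with a log2 difference of 0.64 (limma adjusted p = 0.136). In siI1 the log2 difference of COL6A1 was 0.43, with a 95% interval from -0.07 to 0.93, and that of COL6A2 was -0.12, with an interval from -0.61 to 0.37. After correction these were 0.00 and -0.55, the latter with a limma adjusted p of 0.0283. The ratio of COL6A1 to COL6A2 per length was 0.746 to 0.883 in siC, 1.05 to 1.25 in siI1, 0.846 to 0.905 in siI2 and 0.673 to 0.700 in siI3, so siI1 lay above and siI3 below siC without overlap. COL6A3 was at 35.1 to 51.2 FPM over all libraries, with the siI2 libraries (35.1 to 38.8) just below siC (39.8 to 43.6).

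COL18A1 encodes type XVIII collagen, a basement membrane proteoglycan from whose end endostatin is cut. It was at 26.9, 35.8 and 17.2 FPM in siC, 52.6, 42.7 and 62.6 in siI1, 72.0, 48.5 and 66.9 in siI2, and 74.4, 67.5 and 34.4 in siI3. The siI1 and siI2 libraries lay above siC, and siI3 3 fell below the highest control library. The log2 differences were 0.999 ± 0.30, 1.24 ± 0.30 and 1.096 ± 0.30 (limma adjusted p = 0.0489, 0.0483 and 0.0316). After correction they were 0.58, 0.78 and 0.57 (limma adjusted p = 0.180, 0.147 and 0.158). Leaving out 1 library at a time kept the call in 1 of 6 fits for siI1 and 2 of 6 each for siI2 and siI3. The calls were lost without siC 1 or siC 3 in all 3 comparisons, without each siI1 library in turn, without siI2 1 or 3, and without siI3 1 or 2.

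**Figure D5:**
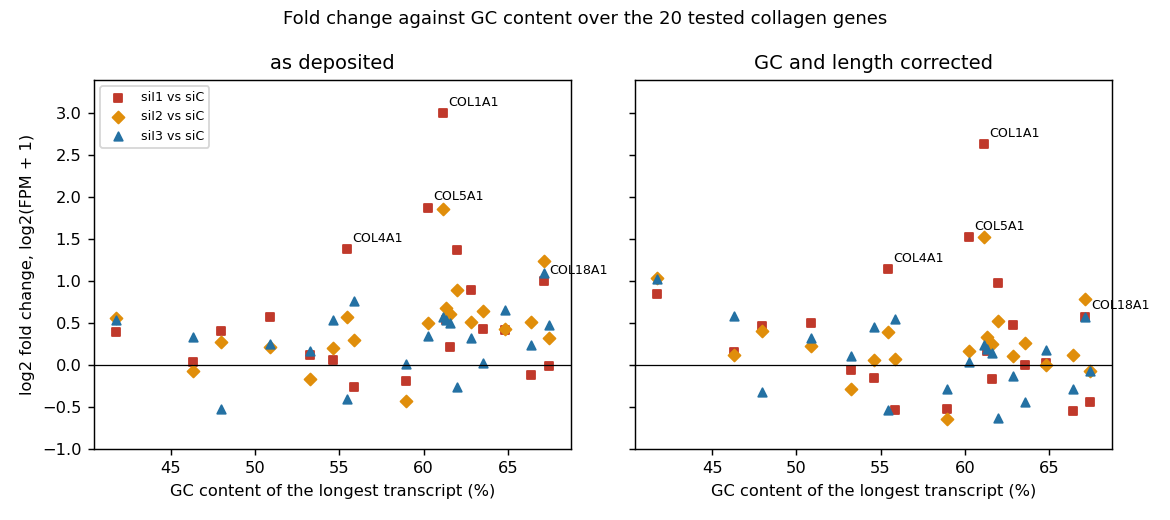
Log2 fold change against control siRNA over the GC content of each tested member's longest transcript, as deposited (left) and after the GC and length correction (right), for the 3 knockdowns. COL18A1, at 67.2% GC, moves from 0.999 to 0.58 in siI1, while COL1A1 stays the highest point at 3.00 and 2.63.

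Across the 20 members, Spearman's rho between GC content and log2 fold change was 0.11 in siI1, 0.50 in siI2 and 0.20 in siI3, and -0.20, -0.07 and -0.33 after correction. The points share libraries and controls, so these are descriptions. The part of base composition in the calls of COL18A1 was not tested beyond the correction.

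Among FACIT genes COL12A1 was the most abundant, at 71.0 to 103 FPM in siC, 82.5 to 111 in siI1, 77.6 to 97.2 in siI2 and 98.8 to 132 in siI3. Its groups overlapped in all comparisons with siC, and the difference in siI3 of 0.34 (limma adjusted p = 0.262) was 0.59 after correction (limma adjusted p = 0.0196). COL16A1 was at 5.07 to 5.68 FPM in siC and 10.1 to 12.3 in siI1, a log2 difference of 0.90 ± 0.28 that did not pass (limma adjusted p = 0.0560) but did with edgeR on recovered reads (adjusted p = 0.0448). With GC and length corrected it was 0.47. COL9A3 and COL20A1 stayed at or below 3.64 FPM. Of the transmembrane collagens, COL13A1 was at 23.5 to 39.6 FPM over all libraries. COL17A1, a component of the hemidesmosomes that hold epithelial cells to the basement membrane, was at 9.97, 13.4 and 7.85 FPM in siC, 8.39, 7.04 and 9.74 in siI1, 12.8, 11.6 and 13.8 in siI2, and 22.5, 21.7 and 11.7 in siI3. Its siI3 libraries overlapped siC, and the log2 difference of 0.76 did not pass (limma adjusted p = 0.0808). COL7A1, the anchoring fibril collagen, was at 1.16 to 2.80 FPM except for 6.30 in siI2 3 and 7.80 in siI3 3, the libraries in which COL1A2 was also high.

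The 23 untested members were all low. The highest level of any was 5.50 FPM (51 reads) for COL23A1. The untested fibrillar genes, COL2A1, COL3A1, COL5A3, COL11A1 and COL24A1, reached at most 3.01 FPM, and COL3A1, the usual partner of type I collagen in soft tissue, at most 2.42 FPM. The untested network genes COL4A3, COL4A4, COL8A1, COL8A2 and COL10A1 reached at most 2.71 FPM, and the beaded filament genes COL6A5 and COL6A6 at most 1.06 FPM. The untested FACIT genes COL9A1, COL9A2, COL14A1, COL19A1, COL21A1 and COL22A1 reached at most 4.08 FPM. COL15A1 reached 1.06, COL25A1 1.70, COL26A1 1.42 and COL28A1 2.30 FPM. Their summed level was 38.6 FPM in siI3 3 and 6.03 to 16.7 FPM in the other libraries.

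The direct comparisons between knockdowns use no control library. Against siI2, siI1 had 2 of 20 collagen genes higher and 0 lower, with 4 of 20 at an unadjusted p below 0.05 (limma), against 2.4% of all genes called and 1.63% called as higher. COL5A1 was higher by 1.38 ± 0.19 (limma adjusted p = 0.000985) and COL1A1 by 1.14 ± 0.26 (limma adjusted p = 0.0235). Of the 20 members, 6 lay higher and 2 lower without overlap between the groups, where 21.5% of all genes did not overlap in either direction. The correction left COL5A1 at 1.35 and COL1A1 at 1.11. It called COL4A1 as higher and COL6A2 as lower as well, with 4.75% of all genes called. The COL5A1 call held in 6 of 6 fits with 1 library left out, and the COL1A1 call in 1 of 6: it was lost without each siI1 library in turn and without siI2 1 or 2.

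Against siI3, siI1 had 5 collagen genes higher and 1 lower, against 7.05% of all genes called and 4.57% called as higher. The log2 differences were 2.44 ± 0.26 for COL1A1, 1.79 ± 0.22 for COL4A1, 1.63 ± 0.23 for COL4A2, 1.53 ± 0.19 for COL5A1 and 0.93 ± 0.22 for COL5A2 (limma adjusted p from 1.67e-05 to 0.0162). COL17A1 was lower by 1.02 on the log2 scale, at -1.02 ± 0.27 (limma adjusted p = 0.0311). Over the 20 members, 7 lay higher and 1 lower without overlap between the groups, where 28.1% of all genes did not overlap in either direction. The first 4 calls held in 6 of 6 fits with 1 library left out. The COL5A2 call was lost without siI1 1, siI1 3 or siI3 2, and the COL17A1 call without each siI1 library in turn and without siI3 1 or 2. After correction COL6A1 was also called as higher and COL12A1 as lower, with 11.5% of all genes called.

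Against siI3, siI2 had 3 collagen genes higher and 0 lower, with 6 of 20 at an unadjusted p below 0.05 (limma), against 2% of all genes called and 1.26% called as higher. COL1A1 was higher by 1.30 ± 0.26, COL4A2 by 1.16 ± 0.23 and COL4A1 by 0.97 ± 0.22 (limma adjusted p = 0.0125, 0.0131 and 0.0299). Over the 20 members, 5 lay higher and 3 lower without overlap between the groups, where 16.5% of all genes did not overlap in either direction. The COL1A1 call held in 6 of 6 fits with 1 library left out, the COL4A2 call was lost without siI2 1, and the COL4A1 call was lost without every library but siI2 2. After correction the 3 calls remained and COL6A1 was also called as higher, with 3.78% of all genes called.

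Over the 12 members with a miR-29 match, the median log2 fold change in siI1 was 0.55, and over the 8 without it was 0.01. The corrected medians were 0.49 and -0.30. In siI2 the medians were 0.51 and 0.42 as deposited and 0.28 and 0.12 after correction. In siI3 they were 0.33 and 0.41 as deposited and 0.14 and 0.03 after correction, which turned their order. COL18A1, called in all 3 knockdowns as deposited, is among those without a match, and COL1A2, COL5A2 and COL6A3, which were not called against control, are among those with one. COL1A1, COL5A1, COL4A1 and COL4A2, called in siI1, also hold a match. All tested genes were not split by the match, so these medians have no background. The part of miR-29 in the collagen differences was not tested.

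Genes that act on collagen chains were read from lists by role, with the shares of all tested genes called given again as the background: 8.18% in siI1, 3.77% as higher, 1.51% in siI2 and 10.6% in siI3. In siI1, 5 of 17 genes of chain modification and folding rose and 0 fell, led by LEPREL1, a prolyl 3-hydroxylase, at 2.16, CREB3L1, a transcription factor that activates collagen genes, at 1.86, and SERPINH1, the collagen chaperone HSP47, at 1.58. Of 10 genes of propeptide removal and crosslinking, 6 rose and 0 fell, led by LOXL1 at 1.89, BMP1, the procollagen C-proteinase, at 1.86, and LOXL2 at 1.42. Of 7 collagen receptors, ITGA11 (1.81) and MRC2 (1.14) rose and ITGA10 (-1.07) fell. Of 9 degradation genes, MMP2 rose (2.06), and MMP1 (-2.36) and MMP16 (-1.09) fell. Of 4 collagen-binding genes 3 rose, led by SPARC (1.90) and BGN (1.77), and FN1 (-1.35) fell. All are limma log2 fold changes with adjusted p from 6.2e-06 to 0.0432, and of the genes named all but MMP16 were called after correction. The correction also ended the call of LOXL3 and newly called MIA3 as higher and MMP14 as lower.

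In siI2, LEPREL1 (1.97), SERPINH1 (1.27) and COLGALT1 (0.77) rose among the 17 folding genes, LOXL2 (1.22) among the 10 crosslinking genes and MRC2 (1.597) among the 7 receptors. MMP2 (1.06) and TIMP3 (0.995) rose among the 9 degradation genes, and THBS1 (1.11) among the 4 binding genes. After correction LEPRE1 (0.88) and SPARC (0.98) were newly called as higher in siI2 (limma adjusted p = 0.0258 and 0.0248). In siI3, ADAMTS2 (1.001) and LOXL2 (0.73) rose, and P4HA1 (-1.02), TGM2 (-0.79), ITGA2 (-1.77), ITGA1 (-1.28), MMP2 (-2.07), TIMP3 (-1.14), THBS1 (-1.39) and FN1 (-1.19) fell. LOXL2, P4HA1 and ITGA1 lost their calls in siI3 after correction, and SERPINH1 (-0.57) and MMP14 (-0.49) were newly called as lower (limma adjusted p = 0.0241 and 0.0427). SERPINH1 was at 256, 308 and 217 FPM in siC, 809.8, 723 and 786 in siI1, 715, 589 and 577 in siI2, and 241, 222 and 150.1 in siI3. The siI1 and siI2 libraries lay above siC, as they did for COL1A1 and COL4A2, while siI3 overlapped it as deposited.

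The marker genes of other cell types were read beside the rise of COL1A1. Among 5 fibroblast markers the summed level was 117 to 156 FPM in siC, 555 to 669 in siI1, 263 to 366 in siI2 and 101 to 156 in siI3. Nearly all of it was THY1, at 96.4 to 661 FPM. DCN and LUM, from the same list, reached at most 1.94 FPM (8 reads) and 0.970 FPM (4 reads) in any library, and FAP at most 2.39 FPM. PDGFRA was present in every library on 15 to 75 reads. It was at 4.42 to 8.70 FPM in siC, 5.12 to 8.96 in siI1, 3.19 to 5.88 in siI2 and 2.03 to 3.01 in siI3. The 2 leukocyte markers had at most 1 read. CDH5, an endothelial cadherin, was at 54.8 to 71.8 FPM in siC, 134 to 149 in siI1, 107 to 126 in siI2 and 93.7 to 109 in siI3, so each knockdown lay above control. VWF, the other endothelial marker read, reached at most 3.15 FPM. Of the mesothelial markers, CALB2 was at 1.65 to 9.38 FPM and MSLN reached at most 1.65 FPM.

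Some markers of mesenchymal and epithelial state differed from control as well. VIM, the mesenchymal intermediate filament, was at 850.0 to 998 FPM in siC and lower in each knockdown without overlap, at 333 to 722 in siI1, 157 to 519 in siI2 and 246 to 515 in siI3. Keratin KRT8 was at 36.5 to 52.7 FPM in siC, 131 to 162 in siI1, 65.7 to 83.9 in siI2 and 38.3 to 59.5 in siI3. KRT18 was at 115 to 213 FPM in siC, 271 to 371 in siI1, 183 to 250 in siI2 and 103 to 138 in siI3. KRT7 was at 495 to 787 FPM in siC, 753 to 938 in siI1, 546 to 823 in siI2 and 347 to 596 in siI3. In siI2 and siI3 both overlapped siC, and KRT7 overlapped it in siI1 too. The part of the endothelial, mesenchymal and epithelial markers in the collagen differences was not tested.

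Antisense genes of COL5A1, COL4A2 and COL18A1 reached at most 2.66 FPM (15 reads) in any library, and no source used here gives the strand setting of the counting.

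In the authors' deposited table, 4 of the 43 collagen genes had an FDR below 0.05 in siI1 (COL1A1, COL5A1, COL4A1 and COL4A2), 1 in siI2 (COL1A1) and 0 in siI3. Of all 57773 genes in the authors' deposited table, unexpressed ones included, such an FDR was given to 0.791% (siI1), 0.18% (siI2) and 0.46% (siI3). The added calls here, of COL18A1, are those that were lost after the GC and length correction.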

How the data were processed

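Per the submitters' processing notes, reads were handled with cutadapt 1.6, TopHat2 2.0.13, featureCounts 1.4.6 and edgeR 3.12 on the hg19 build; the annotation release and strand setting are not stated there. Per the file headers, the authors deposited FPM for each library, a signal scaled by them, with 57865 features of which 92 were spike-ins. Per the file headers they also deposited log2 fold changes and an FDR, an adjusted p-value, for each knockdown against control; the text names the authors' deposited table wherever it uses these. Groups and replicate numbers come from the titles and siRNA labels, although the treatment label speaks of parental cells. Every value column was mapped to a sample, so the number left unmapped was 0.

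FPM values were whole multiples of the worth of 1 read: 100% came out whole within 0.01 reads. Genes with enough recovered reads (filterByExpr, minimum count 10) numbered 13782. The main test was limma 3.58.1 in R 4.3.3 on log2(FPM + 1), with the variance trend on mean level, over all 12 libraries with 1 coefficient per group. This scale understates the change of low genes. P-values were adjusted by Benjamini-Hochberg over all tested genes of a comparison, and a gene was called below 0.05; all tests are two-sided. The test was checked on 5 simulated sets for siI1 against siC. It called 1.86% of changes of 1.5-fold, 20.5% of 2-fold and 68.1% of 4-fold. Each set changed 200 of 13782 genes, drawn at random over all levels, while the real comparison called 1128. These rates hold for that setting and are not rates for the collagen genes. A gene that did not pass is not shown to be unchanged. edgeR 4.0.16 and DESeq2 1.42.0 on recovered reads were alternatives.

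The GC and length correction subtracted from each library a loess surface (span 0.5) fitted over the longest GENCODE transcript's GC content and its length (13570 genes). Chromosomes and transcript lengths come from GENCODE release 29 on GRCh38; FPM per kilobase divides by that length. A 3' UTR is the longest among coding transcripts of the basic set, counted from 1 after the stop codon.

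The members and lists were chosen with earlier results of these data known. Every collagen gene called in at least 1 of 6 comparisons is named with its values, and from each list up to 3 called genes per comparison with the largest change. COL11A2 and the antisense genes were added after their values were seen. Alternatives were other pseudocounts, filters, tools and scaling factors, the correction, a replicate block, fewer libraries and, chosen after seeing the data, siC 2 as the only control. The spike-ins were left out.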

Additional observations from a re-analysis of the deposited data

How the results depend on the processing

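Precision is limited by 3 libraries a group and by depth: members at a few FPM rest on few reads. No difference of a called collagen gene changed sign in any of 331 alternative fits over 19 calls, and 61 of these fits lost the call; the cause was not tested. The numbers of collagen genes called in a choice of alternative fits follow, whether or not they moved by over 1.5 times (limma unless another tool is named). For siI1 against siI3, none of the numbers listed moved by more than that. With siC 2 as the only control the test is also less precise. For siI1 against siC (5 called), siC 2 as the only control gave 2, and leaving out 1 library at a time gave 4 to 5. For siI2 against siC (2 called), a pseudocount of 0.25, no filter, the GC and length correction, the correction with the replicate block, and only the 6 libraries compared each gave 1, DESeq2 gave 7, edgeR 3, leaving out 1 library at a time 1 to 4 (4 without siC 2 or without siI2 2), and siC 2 as the only control 0 (1 at an unadjusted p below 0.05). For siI3 against siC (1 called), no filter gave 0 (7 at an unadjusted p below 0.05), the correction 2, DESeq2 3, edgeR 1, leaving out 1 library at a time 0 to 3 (3 without siI3 3; 0 without siC 1, siC 3, siI3 1 or siI3 2, with 2 to 4 at an unadjusted p below 0.05), and siC 2 as the only control 0 (1 at an unadjusted p below 0.05). For siI1 against siI2 (2 called), no filter and edgeR each gave 1, the correction 4, and leaving out 1 library at a time 1 to 2. For siI1 against siI3 (6 called), leaving out 1 library at a time gave 4 to 6. For siI2 against siI3 (3 called), only the 6 libraries compared gave 0 (5 at an unadjusted p below 0.05), and leaving out 1 library at a time 1 to 3.

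With the replicate number as a block, the calls in siI1, siI2 and siI3 against siC numbered 4, 1 and 1, and in the direct comparisons of siI1 with siI2, siI1 with siI3 and siI2 with siI3 they numbered 2, 5 and 3. Whether the numbers pair the samples was not settled: 7 of 18 same-numbered pairs correlated above 0.1, with a range from -0.45 to 0.45, and 3 of 12 libraries correlated best with their own number. Same-numbered pairs of siI1 and siI2 were at 0.19, 0.45 and 0.18, and those of siC and siI2 at -0.21, -0.45 and -0.01. Deviations from a mean of 3 libraries are tied to each other, so this check cannot exclude a pairing.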
